A study of Mus musculus with 6 samples.

Results

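A set of 35 genes that oligodendrocyte-lineage cells use before and during myelination was followed in RNA-seq of spinal cord oligodendrocyte precursor cells (OPCs) that lack GDE3 and in wild-type (WT) OPCs. The 35 were taken by name from textbook markers of premyelinating and myelinating oligodendrocytes, and all of them were among the 31266 genes that could be quantified. The GDE3 knockout (KO) cells are labelled Gde3 KO and the WT cells carry no named deletion. Both groups are on the C57BL/6 background and come from the spinal cords of pups at postnatal day 0.5. Cells were selected with magnetic beads for A2B5, a surface epitope of glial precursors, and both groups were cultured for 16 h in a proliferative medium with PDGF at 10 ng/mL, CNTF at 10 ng/mL and forskolin at 5 µM. There were 3 KO and 3 WT libraries. The Gdpd2 gene encodes GDE3, an enzyme at the cell surface that releases proteins held by a glycosylphosphatidylinositol anchor, and the title of the series concerns its part in OPC proliferation. The labels do not say whether replicates came from separate litters. A p-value here therefore sets the difference between KO and WT only against the spread among these libraries, some of which may be technical.

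OPCs divide in response to PDGF and, when they leave the cycle, pass through a premyelinating stage in which they extend many processes and switch on the transcription factor gene Myrf. MYRF, together with SOX10 and OLIG2, then drives genes for the proteins and lipids of the myelin sheath. Genes such as Bcas1 and Itpr2 are known from the earlier, premyelinating stage, whereas Mog, Mal, Opalin and Aspa are known from mature oligodendrocytes. These roles are background for the order in which the genes are described.

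Levels are given in FPKM, in which fragment counts are scaled for the length of the transcript and for the size of the library, averaged over the exonic bases of a gene that no other annotated gene shares. Positions are on the mm10 build. The targeted gene Gdpd2 had 0.667, 1.497 and 1.78 FPKM in KO replicates 1 to 3, and 0, 2.79 and 2.85 FPKM in WT replicates 1 to 3. Among transcripts of 300 nt or more, its exons 9 and 10 were assembled in none of the 3 KO libraries and in full in WT replicates 2 and 3. No such transcript covered any exon of the gene in WT replicate 1, and shorter pieces were not examined. WT replicate 1 also stood apart in other ways. Its assembled transcripts had a median length of 438 nt, where those of the other 5 libraries had medians of 1173 to 1830 nt, it had the lowest relative depth, and it alone had Xist (15.4 FPKM) and no Ddx3y. A 0 in this library therefore means that nothing of 300 nt or more was assembled. The OPC identity of the labels was visible in the markers, since Pdgfra, the PDGF receptor of OPCs, ranged from 60.7 to 133 FPKM and Olig1, a lineage transcription factor, from 356 to 518 FPKM over the 6 libraries.

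The myelin programme was already present in these proliferating cultures, but its members spanned a wide range of levels. Averaged over the 6 libraries, 4 members were at 100 FPKM or more, 18 of the 35 were at 10 FPKM or more, 16 lay between 1 and 10 FPKM and 1 lay under 1 FPKM. The median of the 12045 genes tested was 9.82 FPKM, 18 members lay above it, and 6 members lay above the 90th percentile of tested genes. In order of mean level the members at 100 FPKM or more were Bcas1 (205 FPKM), Cd9 (184 FPKM), Cnp (142 FPKM) and Fyn (116 FPKM), followed by Sirt2, Cldn11, Plekhb1, Mag, Mbp, Qdpr, Nfasc, Cryab, Myrf, Zfp488, Gal3st1, Gsn, Tppp and Plxnb3, which closed the band at 10 FPKM or more with 10.3 FPKM. Trf, Fa2h, Ugt8a, Tmem88b, Mal, Tspan2, Gjc3, Nkx6-2, Itpr2, Mog, Zfp536, Mobp, Aspa, Gpr37, Evi2a and Opalin formed the band from 1 to 10 FPKM, and Ermn came last at 0.884 FPKM. Of the 34 pairs of neighbours in this order, 33 overlapped in their ranges over the 6 libraries, so that only Cldn11 and Plekhb1 were separated, with 61.3 FPKM as the lowest Cldn11 value and 50.3 FPKM as the highest Plekhb1 value. In bulk RNA, fewer cells with a transcript and less of it per cell cannot be told apart.

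**Figure D1:**
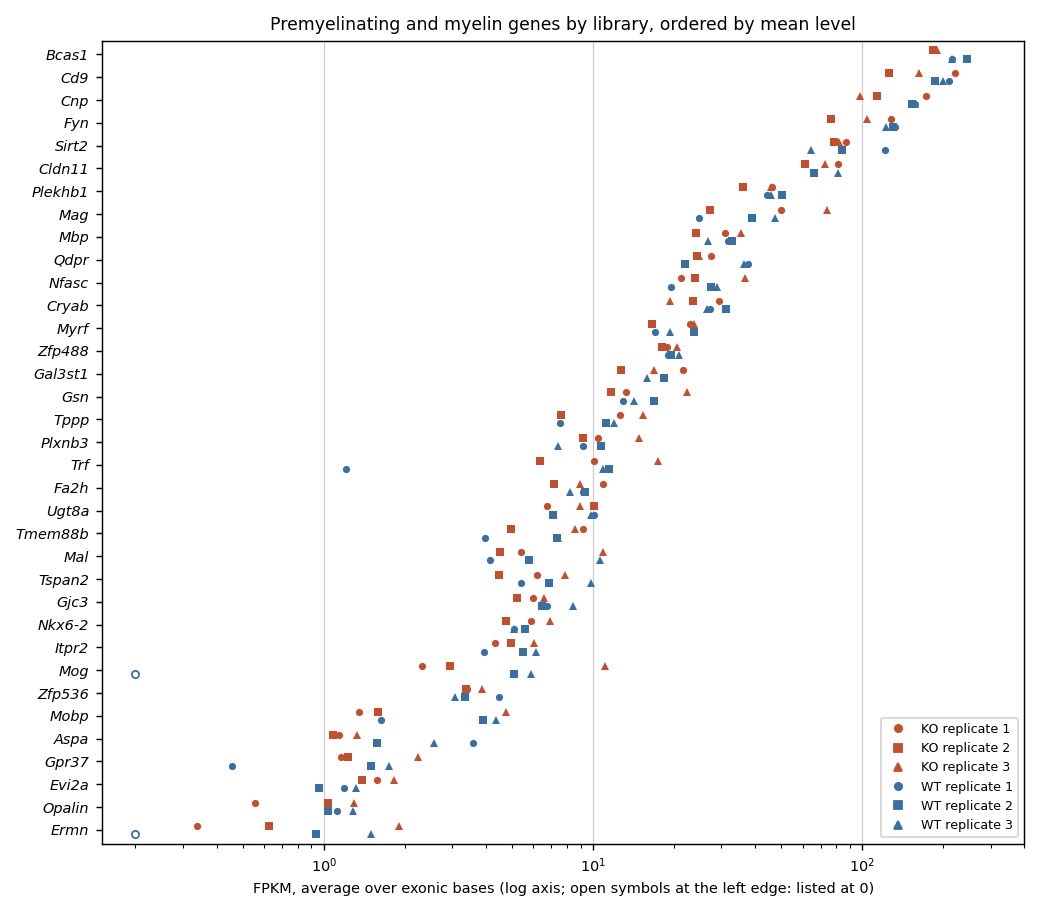
FPKM of the 35 genes in each library on a log axis, ordered by mean level, with KO libraries drawn just above WT libraries in each row and open symbols at the left edge for values listed at 0. Levels run from Bcas1 (mean 205 FPKM) to Ermn (mean 0.884 FPKM), KO and WT points mix in most rows, and only Mog and Ermn have an open symbol, both in WT replicate 1.

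The genes of premyelinating cells, receptors and signalling proteins held the highest and some of the lowest levels. Bcas1, a cytoplasmic protein used as a marker of premyelinating and newly myelinating cells, was at 182.9, 182.3 and 190.1 FPKM in KO libraries and at 215.4, 245.3 and 214.9 FPKM in WT libraries. Every KO library lay below every WT library, by a narrow margin relative to the level, and the same held over coding bases, with 203.3 to 214.6 FPKM in KO and 229.7 to 276.7 FPKM in WT libraries. Fyn, a Src-family kinase that acts on process outgrowth and on translation of Mbp mRNA, was at 128, 76.3 and 105 FPKM in KO libraries and at 132, 130 and 122.6 FPKM in WT libraries. The low KO replicate 2 value went with its assembled extent: 51.7% of the exonic bases of Fyn were assembled there against 88.2% to 93.0% in the other libraries. Over coding bases only, an average chosen after seeing the data, Fyn was at 132, 120 and 108 FPKM in KO libraries and at 137, 146 and 126 FPKM in WT libraries, and the groups overlapped. Nfasc, the neurofascin cell adhesion gene of the paranode, ranged from 21.2 to 36.5 FPKM in KO libraries and from 19.6 to 28.9 FPKM in WT libraries. Plxnb3, a semaphorin receptor, was at 10.4, 9.20 and 14.8 FPKM in KO libraries and at 9.21, 10.7 and 7.38 FPKM in WT libraries, with KO replicate 3 the highest and the groups overlapping. The other 3 were low: Gjc3, a connexin of oligodendrocytes, ranged from 5.23 to 6.57 FPKM in KO and from 6.47 to 8.46 FPKM in WT libraries, Itpr2, an intracellular calcium channel, from 4.32 to 6.02 FPKM in KO and from 3.95 to 6.14 FPKM in WT libraries, and Gpr37, an orphan receptor, from 1.16 to 2.25 FPKM in KO and from 0.456 to 1.75 FPKM in WT libraries.

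Of the transcription factors, Myrf, Nkx6-2 and Zfp536 had a highest library 1.43, 1.44 and 1.45 times the lowest. The median of this ratio was 1.56 for tested genes with no 0. Myrf was at 22.9, 16.6 and 23.8 FPKM in KO libraries and at 17.0, 23.6 and 19.3 FPKM in WT libraries. Zfp488, a zinc finger partner of OLIG2, had the narrowest range of the 35 members, with 18.9, 18.1 and 20.5 FPKM in KO libraries and 19.0, 19.5 and 20.8 FPKM in WT libraries. Its highest value was 1.15 times its lowest. Nkx6-2, a homeobox factor, ranged from 4.77 to 6.90 FPKM in KO and from 5.10 to 5.60 FPKM in WT libraries, and Zfp536, a zinc finger repressor, from 3.39 to 3.88 FPKM in KO and from 3.08 to 4.46 FPKM in WT libraries. For all 4 factors the KO and WT libraries overlapped.

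Among the 28 members with a RefSeq promoter window (GRCm38.p6, 250 bases before to 50 after the start), 5 held a MYRF motif, CTGGCAC or CTGGTAC on either strand: Cnp, Mag, Mog, Opalin and Zfp488. This is 17.9% of them, against 7.07% of 27025 genes with a window of the same length. ACAAAG, a SOX core, was in 5 of the 28 (17.9%, against 18.7% of all genes), and CAGCTG or CAGATG, E-boxes of the kind OLIG2 binds, were in 12 of the 28 (42.9%, against 30.4%). In Zfp488 the MYRF match overlapped an E-box match, no other matches of different motifs overlapped, and a match describes the sequence only. The stretches around the 3 MYRF motifs that lie before the start are shown because they are in genes of the sheath itself, with the motif in capitals, reading 5′ to 3′ on the strand of the gene.
Cnp, chr11:100574831-100574891, plus strand: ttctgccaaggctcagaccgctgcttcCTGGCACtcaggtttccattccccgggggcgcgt
Mag, chr7:30914898-30914958, minus strand: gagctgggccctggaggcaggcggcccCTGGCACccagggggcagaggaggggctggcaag
Mog, chr17:37023448-37023508, minus strand: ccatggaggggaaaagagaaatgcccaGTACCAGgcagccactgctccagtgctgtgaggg
In Cnp and Mag the motif reads CTGGCAC on the strand of the gene and begins 81 and 68 bases before the start. In Mog it begins 83 bases before the start and lies on the other strand, as GTACCAG. These 3 genes stood far apart in level, with means of 142 FPKM for Cnp, 43.7 FPKM for Mag and 4.55 FPKM for Mog.

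The tetraspanin and other membrane protein genes spread over the whole range. Cd9, a tetraspanin of OPCs and myelin, was at 221, 126 and 163 FPKM in KO libraries and at 211, 186 and 199 FPKM in WT libraries, with KO replicate 1 the highest and KO replicate 2 the lowest. Plekhb1, a membrane-associated protein with a pleckstrin homology domain, ranged from 36.2 to 46.2 FPKM in KO and from 44.3 to 50.3 FPKM in WT libraries. Tspan2, a tetraspanin of early myelinating cells, ranged from 4.49 to 7.84 FPKM in KO and from 5.41 to 9.80 FPKM in WT libraries, and Tmem88b from 4.97 to 9.22 FPKM in KO and from 3.96 to 7.44 FPKM in WT libraries. The groups overlapped in each of these genes. Evi2a, which encodes a small membrane protein, was at 1.58, 1.39 and 1.82 FPKM in KO libraries and at 1.19, 0.961 and 1.32 FPKM in WT libraries. It was the only member in which every KO library lay above every WT library, and over coding bases the groups overlapped, with 2.80, 2.75 and 4.95 FPKM in KO and 3.21, 1.52 and 2.42 FPKM in WT libraries.

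The cytoskeletal genes included one of the most abundant members. Cnp, the cyclic nucleotide phosphodiesterase that keeps cytoplasmic channels in myelin open, was at 172, 113 and 97.7 FPKM in KO libraries and at 157, 153 and 157 FPKM in WT libraries. In KO replicate 3 only 41.9% of its exonic bases were assembled, against 96.9% to 99.2% elsewhere, and over coding bases Cnp was at 181, 119 and 164 FPKM in KO libraries and at 161, 160 and 165 FPKM in WT libraries. Cnp thus had 1 library, KO replicate 2, below the others by coding bases. Sirt2, a deacetylase of tubulin, ranged from 78.4 to 87.4 FPKM in KO and from 64.7 to 121 FPKM in WT libraries. Gsn, the actin-severing gelsolin, ranged from 11.6 to 22.3 FPKM in KO and from 13.0 to 16.8 FPKM in WT libraries, and Tppp, a tubulin polymerisation-promoting protein, averaged 11.9 ± 3.9 FPKM in KO and 10.2 ± 2.4 FPKM in WT libraries (SD, n = 3 each). Both genes overlapped between the genotypes. Ermn, an actin-binding protein of mature sheaths, was at 0.339, 0.627 and 1.90 FPKM in KO libraries and at 0, 0.939 and 1.50 FPKM in WT libraries. It was the one member under the 1 FPKM filter of the fit, and an exact two-sided permutation test of its 3 KO against 3 WT libraries gave p = 0.9, where the smallest p possible is 0.1.

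Of the structural and adhesion proteins of the sheath, Mag and Cldn11 were well above the median gene over all exonic bases and Mog, Mobp and Opalin below it. Cldn11, the claudin of myelin tight junctions, ranged from 61.3 to 81.5 FPKM in KO and from 66.1 to 81.4 FPKM in WT libraries. In KO replicate 3 only 50.4% of its bases were assembled, and over coding bases Cldn11 was at 81.5, 61.3 and 144 FPKM in KO libraries and at 67.6, 81.5 and 83.0 FPKM in WT libraries. By that average KO replicate 3 stood well above the other 5. Mag, the adhesion protein of the innermost wrap, was at 50.1, 27.2 and 73.9 FPKM in KO libraries and at 24.7, 38.8 and 47.4 FPKM in WT libraries. Its highest value, in KO replicate 3, was 2.99 times its lowest, in WT replicate 1, and the groups overlapped. Mal, a proteolipid of membrane rafts, was at 5.40, 4.53 and 10.9 FPKM in KO libraries and at 4.14, 5.78 and 10.6 FPKM in WT libraries, so both libraries numbered 3 stood above the rest of their group. Mog, a surface protein of the outermost lamella, was at 2.33, 2.94 and 11.1 FPKM in KO libraries and at 0, 5.09 and 5.90 FPKM in WT libraries. Without the 300 nt minimum, Mog had 3.20 FPKM in WT replicate 1, so that its 0 there came from short pieces. Mobp, a small basic protein, was at 1.35, 1.59 and 4.75 FPKM in KO libraries and at 1.64, 3.91 and 4.35 FPKM in WT libraries, with replicate 3 the highest of each group. Only 12.9% to 40.4% of its bases were assembled, and over coding bases Mobp was at 4.64, 8.36 and 21.5 FPKM in KO libraries and at 3.83, 15.4 and 10.1 FPKM in WT libraries. Its mean was then 10.6 FPKM in place of 2.93 FPKM, its rank 18 in place of 30, and WT replicate 2 the highest WT library. Opalin, a glycoprotein of mature oligodendrocytes, ranged from 0.554 to 1.30 FPKM in KO and from 1.04 to 1.29 FPKM in WT libraries.

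Mbp, whose product compacts the cytoplasmic faces of myelin, needs a reading of its own. Over all exonic bases it was at 31.1, 24.1 and 35.4 FPKM in KO libraries and at 31.6, 32.7 and 26.7 FPKM in WT libraries, and it ranked ninth. Only 15.2% to 16.2% of its annotated exonic bases were assembled, and of the last exon, 1526 bases long, 16 to 103 bases were. Over coding bases Mbp was at 162, 117 and 186 FPKM in KO libraries and at 199, 161 and 132 FPKM in WT libraries, which put it the third of 34 members. The place of Mbp in the order thus depended on which bases were averaged, while its KO and WT libraries overlapped both ways. Over coding bases 6 members were at 100 FPKM or more and 20 at 10 FPKM or more. Spearman's rho between the orders by all exonic bases and by coding bases was 0.968, as a description over 34 genes that share libraries.

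**Figure D2:**
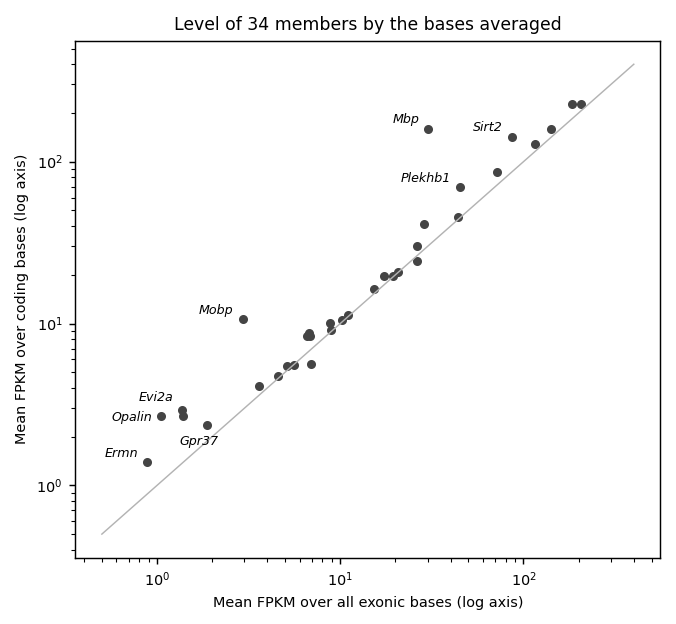
Mean FPKM over 6 libraries by coding bases against mean FPKM by all exonic bases for 34 members, both on log axes, with the line of equality. Trf has no coding bases of its own and is not drawn. Members more than 1.5 times higher by coding bases are named, and Mbp stands farthest from the line, at 160 against 30.3 FPKM.

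The 4 genes of myelin lipid and acetate metabolism were at moderate to low levels. Gal3st1, which makes sulfatide, ranged from 12.7 to 21.6 FPKM in KO and from 15.9 to 18.3 FPKM in WT libraries. Fa2h, which makes the hydroxylated fatty acids of myelin galactolipids, ranged from 7.20 to 10.9 FPKM in KO and from 8.19 to 9.35 FPKM in WT libraries, and Ugt8a, which makes galactosylceramide, from 6.72 to 10.1 FPKM in KO and from 7.13 to 10.1 FPKM in WT libraries. The 3 galactolipid genes overlapped between genotypes. Aspa, which splits N-acetylaspartate to give acetate, was at 1.14, 1.08 and 1.33 FPKM in KO libraries and at 3.58, 1.58 and 2.57 FPKM in WT libraries. Every KO library lay below every WT library, and the WT libraries were spread from 1.58 to 3.58 FPKM.

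The metabolic and chaperone genes of late oligodendrocytes were at moderate levels. Qdpr, dihydropteridine reductase, ranged from 24.4 to 27.4 FPKM in KO and from 22.1 to 37.7 FPKM in WT libraries, and Cryab, a small heat shock protein, from 19.4 to 29.5 FPKM in KO and from 26.5 to 31.1 FPKM in WT libraries. Trf, the iron carrier transferrin, was at 10.1, 6.35 and 17.4 FPKM in KO libraries and at 1.21, 11.5 and 10.9 FPKM in WT libraries. In WT replicate 1 only 9.36% of the usable bases of Trf were assembled, against 59.1% to 77.1% elsewhere. The value of Trf rests on 23.3% of its exonic bases, because an overlapping gene model, Gm20425, shares the others, and reads of the pair cannot be told apart.

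The comparison of genotypes asked whether loss of GDE3 changed the level of these genes. None of the 34 tested members passed limma's test with Benjamini-Hochberg adjustment over all genes, in which 1 of 12045 genes (0.0083%) was called. Every member had an adjusted p of 0.9999. On the log2(FPKM + 1) scale, which understates changes of low genes, 14 members were higher and 20 lower in KO, against 48.6% higher and 51.4% lower among all tested genes. The median difference was -0.02 for the members and -0.01 for all tested genes, and 27 of the 34 lay within 0.3 of zero. At an unadjusted p under 0.05 stood 1 member, Aspa, against 1.62% of all tested genes. Evi2a was the 1 member with every KO library above every WT library (2.03% of all tested genes) and Bcas1 and Aspa were the 2 members with every KO library below (3.03%). These counts are close to what the shares give for 34 genes.

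**Figure D3:**
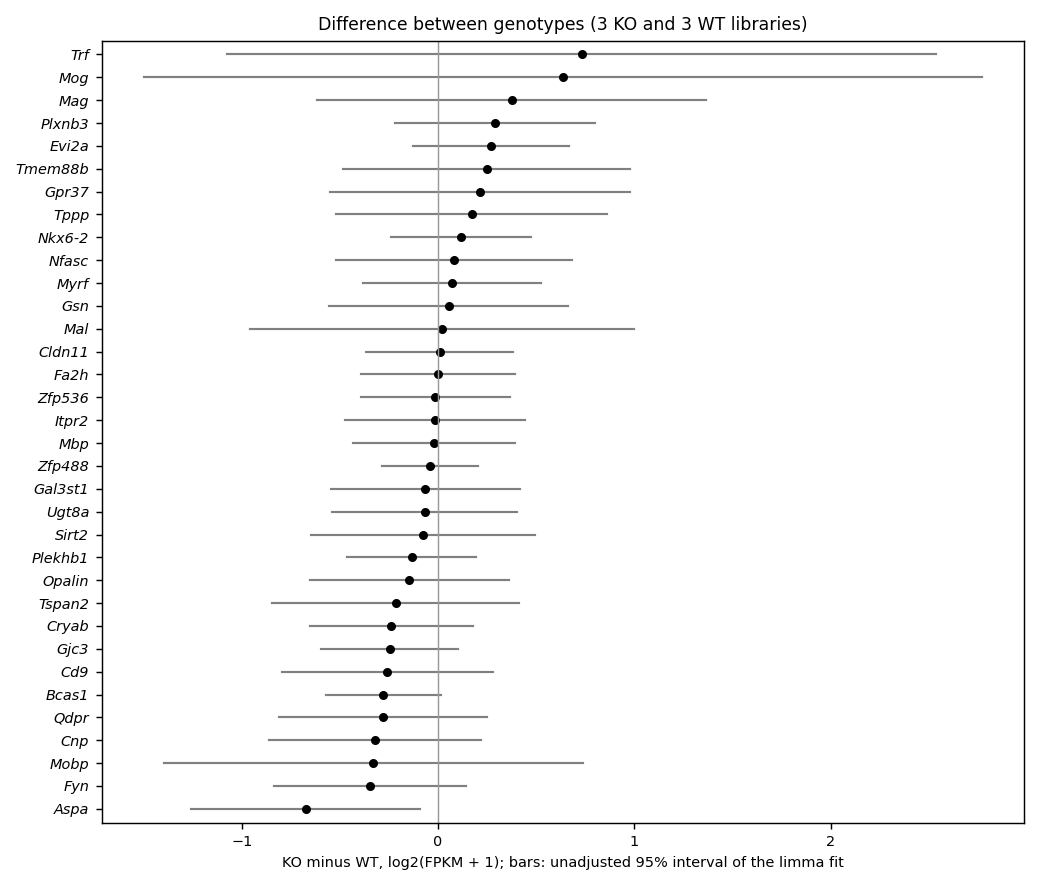
Difference between 3 KO and 3 WT libraries for the 34 tested members, as log2(FPKM + 1) in KO minus WT, with unadjusted 95% intervals of the limma fit. Points run from Trf at 0.73 to Aspa at -0.67, and the interval of Aspa alone leaves out zero.

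The members with the smallest unadjusted p in each direction were as follows. Aspa differed by -0.67 (SE 0.24, 95% interval -1.26 to -0.09, unadjusted p = 0.0301 in the limma fit). Without WT replicate 1 the Aspa difference was -0.48, and no member stood at an unadjusted p under 0.05 when KO replicate 2, KO replicate 3, WT replicate 1 or WT replicate 3 was left out. Bcas1 differed by -0.28 (SE 0.12, interval -0.57 to 0.02) and Fyn by -0.35 (SE 0.20, interval -0.84 to 0.14). All 3 kept a negative difference in each alternative in which they were tested, but the Fyn difference was -0.19 over coding bases and -0.07 over assembled bases. Evi2a differed by 0.27 (SE 0.16, interval -0.13 to 0.67) and Plxnb3 by 0.29 (SE 0.21, interval -0.22 to 0.80). Trf differed by 0.73 (SE 0.74, interval -1.07 to 2.54), and this value rested on WT replicate 1, without which it was -0.09. Same-numbered libraries deviated together, and in the fit blocked by replicate number 0 genes were called and 3 members stood at an unadjusted p under 0.05, Aspa, Gjc3 and Bcas1, against 4.23% of all tested genes. The intervals set what the design could show: standard errors ran from 0.10 for Zfp488 to 0.88 for Mog, with a median of 0.21. A missed threshold at this precision does not show that the genotypes have equal levels.

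Directions depended on single libraries and on the bases averaged. Without WT replicate 1, 9 of the 34 members were higher in KO and 15 changed direction, and without KO replicate 3, 8 were higher in KO. The count moved the other way to 18 of 34 without KO replicate 2, 17 of 34 without KO replicate 1 or over assembled bases, and 19 of 33 over coding bases. No member was called in any of these fits. By role, 4 of 7 structural and adhesion genes, 3 of 7 premyelinating and signalling genes, 2 of 5 membrane protein genes, 2 of 4 tested cytoskeletal genes, 2 of 4 transcription factor genes, 1 of 3 metabolic and chaperone genes and 0 of 4 lipid genes had a higher fitted level in KO, with 0 called in each.

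The stage classes differed in median level and in spread between libraries, but their levels overlapped. Mean levels ran from 5.145 to 205 FPKM in the premyelinating class and from 0.884 to 43.7 FPKM in the late class. Over coding bases the class medians were 20.28 FPKM and, for the 9 late genes with a value, 8.325 FPKM. The 6 premyelinating genes (Bcas1, Itpr2, Fyn, Nkx6-2, Zfp488 and Myrf) had a median mean level of 20.0 FPKM, and their highest library was 1.15 to 1.74 times their lowest, with a median of 1.44. The 10 late genes (Mog, Mal, Opalin, Trf, Qdpr, Cryab, Aspa, Mobp, Mag and Ermn) had a median mean level of 5.72 FPKM, and for the 8 with no value at 0 the ratio had a median of 2.81 and ran from 1.60 to 14.4. The median ratio was 1.75 for the 33 members and 1.56 for the 11407 tested genes with no 0. The late class also varied more than the premyelinating class without WT replicate 1, with a median ratio of 2.56 over 10 genes against 1.43, and without KO replicate 3, with 2.44 against 1.38. Both omissions were chosen after seeing the data, and the difference between classes was not tested. The part of the lower level of the late genes in their wider spread was not tested either.

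The late genes had their highest median in KO replicate 3. Their median level was 3.86, 3.74 and 11.0 FPKM in KO replicates 1 to 3 and 2.61, 5.43 and 8.24 FPKM in WT replicates 1 to 3. The median length of assembled transcripts was 1395, 1173 and 1830 nt in KO replicates 1 to 3 and 438, 1496 and 1816 nt in WT replicates 1 to 3, which ranks the 6 libraries in the same order as the late medians; its part in these values was not tested. KO replicate 3 was the top library for 7 of the 10 late genes, while Aspa, Qdpr and Cryab were highest in a WT library and Cryab was lowest in KO replicate 3. The same library was the highest for 16 of the 35 members, against 15.9% of all tested genes, and KO replicate 2 was the lowest library for 15 of the 35, against 17.3%. By coding bases KO replicate 3 was the top library for 5 of 9 late genes with a value and for 14 of 34 members. The premyelinating genes had medians of 20.9, 17.4 and 22.2 FPKM in KO and 18.0, 21.5 and 20.1 FPKM in WT libraries, so that KO replicate 3 was again the highest, by a narrow margin. The summed level of 10 astrocyte markers, none of them at 0 in any library, was also highest in KO replicate 3 and lowest in WT replicate 1, with 285, 500 and 775 FPKM in KO and 213, 595 and 604 FPKM in WT replicates 1 to 3. KO replicate 3 was likewise the top library for the summed microglial markers (230 FPKM, against 83.5 to 161 FPKM in the other 5), vascular and meningeal markers (95.5 FPKM, against 56.8 to 77.6 FPKM) and cycling genes (935 FPKM, against 635 to 878 FPKM). Its place above WT replicate 3 in the cycling sum rested on Pcna, at 249.9 FPKM in KO replicate 3 and 83.75 FPKM in WT replicate 3. Mki67, Ccnb1, Cdk1 and Aurkb were also highest in KO replicate 3, whereas Top2a, Bub1 and Ccna2 were highest in WT replicate 3. The part of these marker sets in the late gene values was not tested.

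**Figure D4:**
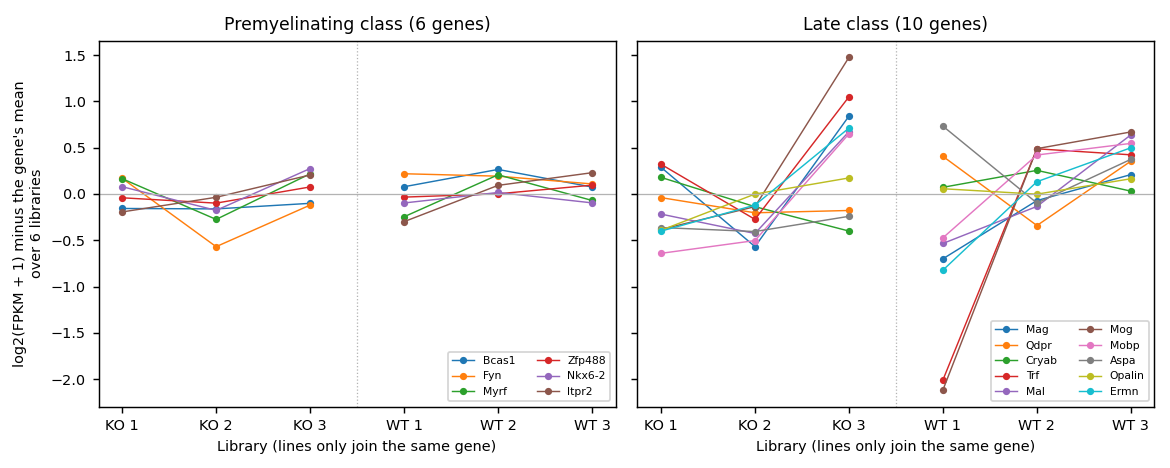
Level of each gene in each library as log2(FPKM + 1) minus the mean of the gene over 6 libraries, for the 6 premyelinating genes and the 10 late genes, with KO libraries on the left of each panel. Premyelinating genes stay close to their means, whereas late genes spread, with Mog and Trf far below the others in WT replicate 1 and 7 of 10 genes highest in KO replicate 3.

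Alternative exons gave a readout that the choice of genes did not use. Exon 12 of Mag, 45 nt long, brings in a stop codon, so that transcripts with it encode the short tail S-MAG and transcripts without it the long tail L-MAG. It is shown for that reason, with the stop codon in capitals, 5′ to 3′ on the strand of the gene, from the reference transcript of GENCODE M21.
Mag exon 12, chr7:30900352-30900396, minus strand: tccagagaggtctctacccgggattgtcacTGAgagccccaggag
Transcripts with exon 12 made up 24.3%, 30.2% and 19.3% of the Mag FPKM in KO libraries and 28.5%, 20.6% and 22.5% in WT libraries. Transcripts without the exon were the majority in all 6, and the genotypes overlapped. These shares are the assembler's estimates for whole transcripts and carry no interval here.

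Fyn used a single form. Its transcripts contain one of a pair of neighbouring exons at the start of the kinase domain, which differ by 9 nt. The longer belongs to the form known from brain and the shorter to the form known from T cells, and both are shown to let the pair be compared.
Fyn 165 nt exon, chr10:39529437-39529601, plus strand: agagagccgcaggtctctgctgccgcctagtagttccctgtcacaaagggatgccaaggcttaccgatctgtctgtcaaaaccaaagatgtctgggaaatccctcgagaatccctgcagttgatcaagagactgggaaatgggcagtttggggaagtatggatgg
Fyn 156 nt exon, chr10:39529919-39530074, plus strand: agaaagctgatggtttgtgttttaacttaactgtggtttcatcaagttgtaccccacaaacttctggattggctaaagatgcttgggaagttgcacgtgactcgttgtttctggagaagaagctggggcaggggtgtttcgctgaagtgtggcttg
The 165 nt exon was in 100% of the FPKM of transcripts spanning the region in all 3 KO and all 3 WT libraries, at 145, 148 and 118 FPKM in KO and 150, 114 and 139 FPKM in WT libraries. The 156 nt exon was assembled in none of the 6 libraries, and a minor form below what the assembler keeps would not appear.

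Other choices of exon or start varied between libraries. Cnp was made from both annotated starts in all 6 libraries, and the transcript Cnp-204, from the later start, held 30.8%, 32.8% and 36.3% of the FPKM of the pair in KO and 28.1%, 31.5% and 37.1% in WT libraries. This was the steadiest of the shares measured apart from Fyn. The classic exon 2 of Mbp, 78 nt long, was in 26.0%, 0% and 29.7% of Mbp FPKM in KO and 15.9%, 25.5% and 0% in WT libraries, the 33 nt exon in 38.8% to 66.1% in KO and 46.9% to 73.4% in WT libraries, and the 123 nt exon in 36.6% to 100% in KO and 40.5% to 52.6% in WT libraries. Sirt2 exon 2, 47 nt long, was in 18.3%, 24.9% and 75.2% in KO and 23.1%, 77.9% and 19.2% in WT libraries, so that one library of each genotype stood apart. Gal3st1 exon 2, 218 nt long, was in 0%, 0% and 58.7% in KO and 100%, 53.8% and 52.2% in WT libraries. A 15 nt exon of Nfasc was in 79.6%, 0% and 61.8% in KO and in 0% in all 3 WT libraries, and a 105 nt exon of Plekhb1 was in 0% in all 3 KO libraries and in 16.7%, 14.1% and 0% in WT libraries. These last exons, counted only where joined to the same neighbouring exons, were assembled in 1 genotype only, in 2 of its 3 libraries. They were picked after seeing the data, from all exons of the members found both included and skipped in at least 1 library. For Mobp, the transcript Mobp-204 was assembled in all 6 libraries, and Mobp-201 only in KO replicate 3, at 42.0 FPKM, and WT replicate 2, at 11.0 FPKM. Each of these shares overlapped between the genotypes, for the Nfasc and Plekhb1 exons through libraries at 0%.

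**Figure D5:**
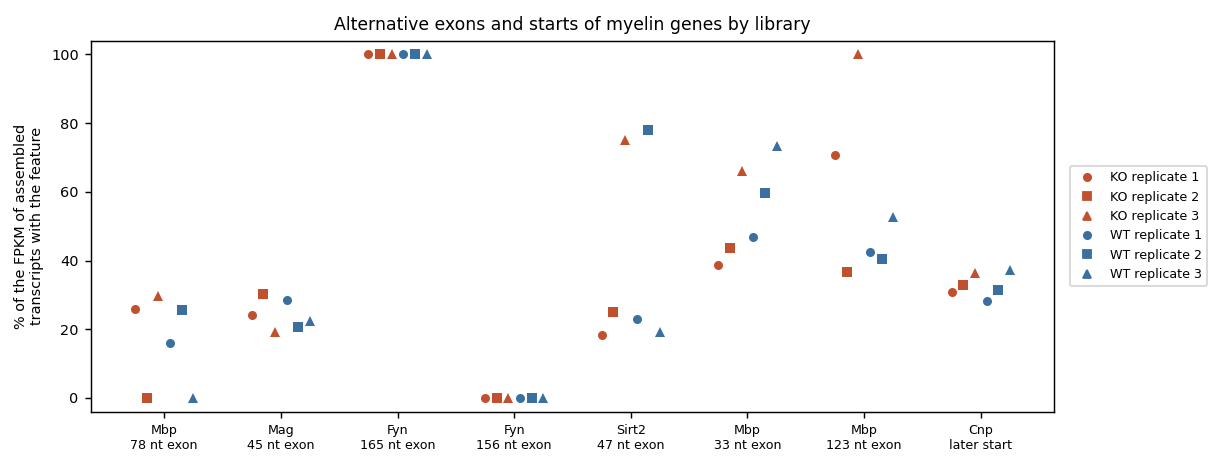
Share of FPKM from assembled transcripts that hold the named exon, among those spanning it, or the later start of Cnp, in percent, with 3 KO libraries on the left and 3 WT libraries on the right of each column. The Fyn exons are at 100% and 0% in every library, Mag and Cnp shares stay between 19.3% and 37.1%, and Sirt2 and the Mbp exons vary widely in both genotypes.

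At Mbp, most assemblies ran from the first exon of the golli transcripts, the longer Mbp forms that start far upstream and are also made outside myelin, into the classic exons. In 5 libraries every Mbp transcript on the gene's strand began in this way, with 226, 171 and 246 FPKM in KO replicates 1 to 3 and 226 and 185 FPKM in WT replicates 2 and 3. In WT replicate 1 the piece with the golli exon was separate, 328 nt long, and had 12.7 FPKM, while pieces without it had 303 FPKM. A chained assembly gives 1 FPKM to the whole chain, so golli and classic Mbp could not be separated in the 5 libraries, and in the one library where they were apart the golli piece was the lower.

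Other genes of the lineage gave the setting for these values. Of 24 further myelin genes, 18 were tested, 10 were higher and 8 lower in KO, and 0 passed the adjusted test. Their median difference was 0.02. Their most abundant members were Cers2, a ceramide synthase, from 37.2 to 72.4 FPKM, and Enpp2, from 34.96 to 53.1 FPKM, over the 6 libraries. Car2, the carbonic anhydrase of oligodendrocytes, had the smallest unadjusted p of this list and averaged 23.8 ± 1.1 FPKM in KO and 19.0 ± 3.0 FPKM in WT libraries (SD, n = 3 each). It did not pass the adjusted test. Of 15 OPC genes, 14 were tested, 2 were higher and 12 lower in KO, with a median of -0.18 and 0 called, and their summed level was 612 to 679 FPKM in KO libraries against 713 to 796 FPKM in WT libraries. The groups did not overlap in this sum, which was not tested. Lhfpl3, an OPC marker, had the smallest unadjusted p of this list, with 85.0 ± 6.9 FPKM in KO and 114 ± 13 FPKM in WT libraries. Ptprz1, a receptor phosphatase, was the most abundant gene of the list, at 131 to 137 FPKM in KO and 141 to 146 FPKM in WT libraries. The sums were separate only with Lhfpl3 included. Lhfpl3 was at 92.6 FPKM in KO replicate 1 and 128 FPKM in WT replicate 3, the KO and WT libraries closest in sum. In Lhfpl3, Ptprz1 and Neu4 every KO library lay below every WT library, as in 3.03% of all tested genes. The other genes of the list, Pdgfra and Cacng4 among them, overlapped between the genotypes. Of 14 lineage transcription factors, 13 were tested, 4 were higher and 9 lower in KO with 0 called; Olig1 and Olig2 were the most abundant. Of 12 cycling genes, 5 were higher and 7 lower in KO with 0 called.

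Markers of other cells that an A2B5 selection could hold were present. Of the myelin genes of Schwann cells, Pmp22 ranged from 38.5 to 51.2 FPKM and Prx from 2.63 to 6.73 FPKM over the 6 libraries. The 9 Schwann cell markers summed to 89.6 to 109 FPKM in KO and 84.6 to 146 FPKM in WT libraries, with 1 of the 9 at 0 throughout. Their highest sum was again in WT replicate 1, against 84.6 and 102 FPKM in WT replicates 2 and 3. Schwann cells share Mbp, Mag, Mal, Cnp and Cryab with oligodendrocytes, and the part of such cells in the values of these members was not tested. All 10 tested microglial markers of 12 had a higher fitted level in KO, against 48.6% of all tested genes. Of these markers, 5 stood at an unadjusted p under 0.05 in the limma fit, against 1.62% of all tested genes, and 0 were called. The 12 markers summed to 140 to 230 FPKM in KO and 83.5 to 122 FPKM in WT libraries. The groups did not overlap in this sum, which was not tested. Neuronal markers summed to 201.7 to 238.1 FPKM in KO and 218 to 413 FPKM in WT libraries, with 2 of 11 higher in KO. The 413 FPKM was in WT replicate 1, against 234 and 218 FPKM in WT replicates 2 and 3. Vascular and meningeal markers summed to 56.8 to 95.5 FPKM in KO and 61.7 to 77.6 FPKM in WT libraries, with 6 of 10 tested higher in KO. Of the 10 astrocyte markers, 7 had a higher fitted level in KO, with 0 called. The part of these cells in the KO and WT values of the members was not tested.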

How the data were processed

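RNA-seq of 3 KO and 3 WT libraries was grouped by the genotype in the labels. The submitters' processing notes name the mm10 build, TopHat2 2.1.1, Cuffdiff 2.2.1, Cufflinks 2.2.1 and FastQC. Each library has a transcript assembly of its own, in which the authors deposited the exons, coverage and FPKM of every assembled transcript. They hold no read counts, so only relative depth could be had: the ratio of coverage to FPKM was 0.763 to 1 times that of the deepest library. No counting interval was given. Whether libraries were stranded is not stated in the labels.

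Transcripts of 300 nt or more that matched the strand of a gene or had none were laid on the GENCODE M21 basic annotation. Their FPKM was summed at each exonic base unshared with other genes and averaged over these bases, for 31266 protein coding and long noncoding genes with at least 200 such bases. A low value can reflect incomplete assembly. The 12045 genes whose mean reached 1 FPKM were tested by limma 3.58.1 (R 4.3.3) on log2(FPKM + 1), two-sided, with an empirical Bayes trend and no term besides genotype, and Benjamini-Hochberg adjustment at 0.05. The code was tested on simulated data.

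The members, lists and stage classes were chosen with earlier results of these data known. All members are reported, with full statistics for the 3 with the smallest unadjusted p in each direction. Further genes are named by level or p within each list, and Pdgfra, Prx, the targeted gene and the sex-linked genes were named in addition. Some genes that this takes are not reported here. Deviations from group means correlated across genes for same-numbered KO and WT libraries (r = 0.369, 0.197 and 0.293 for numbers 1 to 3, against -0.277 to 0.0234 for other combinations). The numbers, taken from the titles, were therefore treated as a pairing in the blocked fit, but not in the main fit. Alternatives covered pseudocounts, filters, scaling, the block, other gene values and left-out libraries. Exon shares use transcripts running past the exon on both sides. Those of the Nfasc and Plekhb1 exons use only transcripts that join the same 2 neighbouring exons, through the exon or directly. Figures were drawn with matplotlib.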

Additional observations from a re-analysis of the deposited data

How the results depend on the processing

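Members called stayed at 0 under every alternative run. The count of all genes called, 1 of 12045, was 0 with a pseudocount of 0.1, a pseudocount of 5, a minimum mean of 5 FPKM, the replicate block or the sum over transcripts, 2 over assembled bases and 27 without replicate pair 1; leaving out single libraries gave 1 to 17, the highest without KO replicate 1. Members at an unadjusted p under 0.05, 1 here, numbered 0 with a minimum mean of 5 FPKM and 3 with the replicate block, and 0 to 4 when single libraries were left out, the highest without KO replicate 1. The labels do not state that same-numbered libraries are paired, and the differences, SEs and intervals given come from the fit without the block. The block changed no other call. The median difference of the members ran from -0.12 (sum over transcripts) to 0.06 (without KO replicate 2). Plxnb3 turned to -0.54 with the sum over transcripts. The Trf log2 difference turned to -0.0203 over assembled bases, -0.34 with the sum and -0.068 without replicate pair 1, and ran from -0.0902 to 1.16 when single libraries were left out, the lowest without WT replicate 1. The cause was not tested. Members at 1 FPKM or more stayed between 34 and 35.

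With 3 libraries per group and no read counts, precision rests on the spread between libraries, and a 0 means that no transcript of 300 nt or more was assembled. Incomplete assembly of a gene's annotated exonic bases lowers a base average, as for Mbp in all libraries, Cnp and Cldn11 in KO replicate 3 and Fyn in KO replicate 2. Genes sharing exons, such as Trf, and antisense transcripts remain uncertain.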

Other observations

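Transcripts that overlapped Mbp but were not assigned to its strand were assembled in 3 of the 6 libraries. They had 4.97 FPKM over 9640 nt in KO replicate 3, 3.82 FPKM over 7955 nt in WT replicate 2 and 5.14 FPKM over 9671 nt in WT replicate 3. None was assembled in the other 3. Whether libraries were stranded is not stated in the labels. Pieces on the opposite strand and pieces without a strand were not told apart here. Both were kept out of the Mbp exon shares, but the gene values take in pieces without a strand. They are given as values only.

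Nfasc also had a 51 nt exon absent from part of its transcripts, besides the 15 nt exon given above. Among transcripts that join its neighbouring exons, those with it held 64.0%, 100% and 73.7% of the FPKM in KO replicates 1 to 3. They held 36.1%, 100% and 100% in WT replicates 1 to 3. Bcas1 was assembled as a chain of 10 exons in all 6 libraries, and this chain matched none of its annotated transcripts in full.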
